A study of Homo sapiens with 12 samples.

Results

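The 3 vehicle arrays of a 12-array study gave the baseline expression profile of VCaP, and the genes of that profile were sorted by the strength and detection of their probes. VCaP is an established human prostate cancer line, grown from a bone metastasis, that responds to androgen and carries a fusion of the androgen-regulated gene TMPRSS2 with the ETS factor ERG. The arrays were those titled as vehicle, the solvent DMSO, and no measured value chose them. Of 20046 genes named on the array, 8859 (44.2%) had at least 1 probe with a detection p under 0.05 on all 3 vehicle arrays, and 8220 (41.0%) had no probe under that threshold on any of them. The detection p is the share of the array's negative control probes that were at least as bright.

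Vehicle cultures stood beside 3 other groups, of 0.1 nM DHT (dihydrotestosterone, an androgen), of 10 µM enzalutamide (an antagonist of the androgen receptor), and of 10 µM enzalutamide with 100 nM dexamethasone (a glucocorticoid). Each group held 3 arrays of biological triplicate cultures, all VCaP, all in complete medium and all harvested after 24 h. All 12 arrays came from a single cell line, so the profile describes that line and not prostate cancers in general. Total RNA had been labelled as biotinylated cRNA and hybridised to Illumina BeadChips, 1 array per culture.

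The glands of the prostate are lined by luminal cells, which secrete kallikreins and prostatic acid phosphatase under the control of androgen, above a layer of basal cells. Rare neuroendocrine cells lie among them. Prostate adenocarcinomas usually keep luminal and lose basal markers, and some that escape androgen blockade take on neuroendocrine genes.

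A level below is a log2 intensity after background correction and quantile normalisation of the 3 vehicle arrays, taken from the brightest probe of a gene, and is given as mean ± SD over n = 3 arrays. A percentile is the gene's position among the 20046 named genes. Probes differ in how well they bind their target, so the order of levels is an order of probe signals and not of RNA amounts. Fewer RNA molecules per cell and fewer expressing cells cannot be told apart in such bulk samples.

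Mean intensity was 341, 287 and 199 on vehicle replicates 1, 2 and 3, against 271 to 344 on the other 9 arrays, so replicate 3 was the dimmest array. Detected probes numbered 16872, 18352 and 15852 of 47322 on those replicates, against 17020 to 18212 on the others. On the first principal component of 19189 undetected probes, vehicle replicate 3 lay at -18.22 and the other 11 arrays between 0.09 and 3.18. Levels of the 8859 detected genes correlated between vehicle replicates at Pearson's r of 0.990 to 0.993, a value taken across genes, which are not independent replicates. Genes missed on replicate 3 do not enter this value, and the levels were quantile-normalised, so it is no check of that array. Between replicates 1 and 2 only 4 of the 8859 genes differed by more than 1 log2 unit, against 18 between replicates 1 and 3 and 15 between replicates 2 and 3. The median SD of a detected gene was 0.12.

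Genes detected on only some of the arrays, or by different probes on each, numbered 2967 (14.8%). Of these, 708 were missed on replicate 3 alone, 248 on replicate 1 alone and 106 on replicate 2 alone. Among the detected genes nearest to the threshold were ZNF335, ZNF345 and ZNF611, whose highest p was 0.0494. Among those just outside it were ADH5, BRF1 and C1orf159 at 0.0506. Genes tied at either value were picked by alphabetical order, so these names stand for no shared function. SFTPD, described below, also had a highest p of 0.0494. Genes whose highest p was between 0.03 and 0.05 numbered 268, and 197 had a highest p between 0.05 and 0.07. Without vehicle replicate 3, the genes detected on every remaining array numbered 9577.

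Detection was shared with most of the series. Of the genes detected on all 3 vehicle arrays, 8436 were also detected on all of the other 9, and of those detected on none, 6023 were detected on none of the other 9. Of the vehicle-detected genes 8585 (96.9%) were in the corresponding set of the DHT group, where they made up 93.0% of it. Of the 8859 genes, a full switch to no array of another group was seen for 44 with DHT, 23 with enzalutamide and 16 with enzalutamide plus dexamethasone. The reverse switch, from no vehicle array to all 3 of another group, was seen for 53, 33 and 40 of the 8220 genes, in the same order. The neuron-specific enolase ENO2, the transglutaminase TGM4 and MYB were among those seen in vehicle and on no DHT array, and KLK3 among those seen in vehicle and on no enzalutamide array, 4 examples chosen after their values were seen.

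The brightest probes belonged to the translation machinery. Ribosomal protein genes of the cytosol held 12 of the first 25 places and 39 of the first 100. RPS12, a protein of the small ribosomal subunit, ranked first, at 13.73, 13.75 and 13.74 on the 3 arrays. It was followed by RPL13AP5, a pseudogene whose sequence resembles RPL13A, at 13.72 ± 0.02, by RPS29 at 13.69 ± 0.10 and by the elongation factor EEF1A1 at 13.64 ± 0.05. The ribosomal proteins RPL41, RPL11, RPL18, RPLP1, RPS6, RPL32, RPL6, RPS27, RPL37A and RPS16 had levels from 13.63 down to 13.38. Other genes in the first 25 were TPT1 (translationally controlled tumour protein) at 13.60 ± 0.17, NACA (a chaperone of nascent chains) at 13.46 ± 0.14, cytoplasmic gamma-actin ACTG1 at 13.43 ± 0.13 and the mitochondrial ATP synthase subunit ATP5F1B at 13.42 ± 0.06. The SD of the first 25 genes had a median of 0.08, and their means span only 13.38 to 13.74. Whether neighbours in this order differ was not tested.

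Of the 25 brightest names, 6, RPL13AP5, ANXA2P2, RPSAP9, RPL13AP20, RPL13AP3 and SLC7A5P2, are annotated as pseudogenes, and 13 of the first 100 are. Whether such a probe reads the pseudogene or its parent gene was not tested. Several bright names also rested on a single probe. LAIR1, a receptor of white blood cells, stood at 13.64 ± 0.13 by its brightest probe and at 4.43 by its other probe, which was detected on 0 of the 12 arrays. F2R, a thrombin receptor, had 13.61 ± 0.10 by its brightest probe and 6.91 by the other. Of the 60 genes among the first 100 that had more than 1 probe, 24 had their second probe more than 5 log2 units lower, and for 11 no other probe was detected on any vehicle array. The chemokine receptor CCR6 and TMSB4X, which encodes an actin-binding peptide, were among those 11, as examples chosen after their values were seen.

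The first 100 genes held 19.3% ± 0.05 (SD, n = 3) of the summed normalised signal on the linear scale, and the first 1000 held 60.5% ± 0.09. The sum ran over the brightest probe of each named gene. Quantile normalisation gives the 3 arrays the same distribution of intensities, so these SDs do not measure the spread between cultures. The 72 cytosolic ribosomal protein genes alone held 9.74% ± 0.05, and 70 subunits of oxidative phosphorylation held 2.98% ± 0.05. Outside these housekeeping groups, the neuropeptide Y gene NPY, known to be expressed in prostate cancer, was at 13.42, 13.21 and 13.49 and ranked 28. It was named after its value was seen. The luminal enzyme ACP3 was the single luminal-list gene among the first 100, at rank 72.

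**Figure D1:**
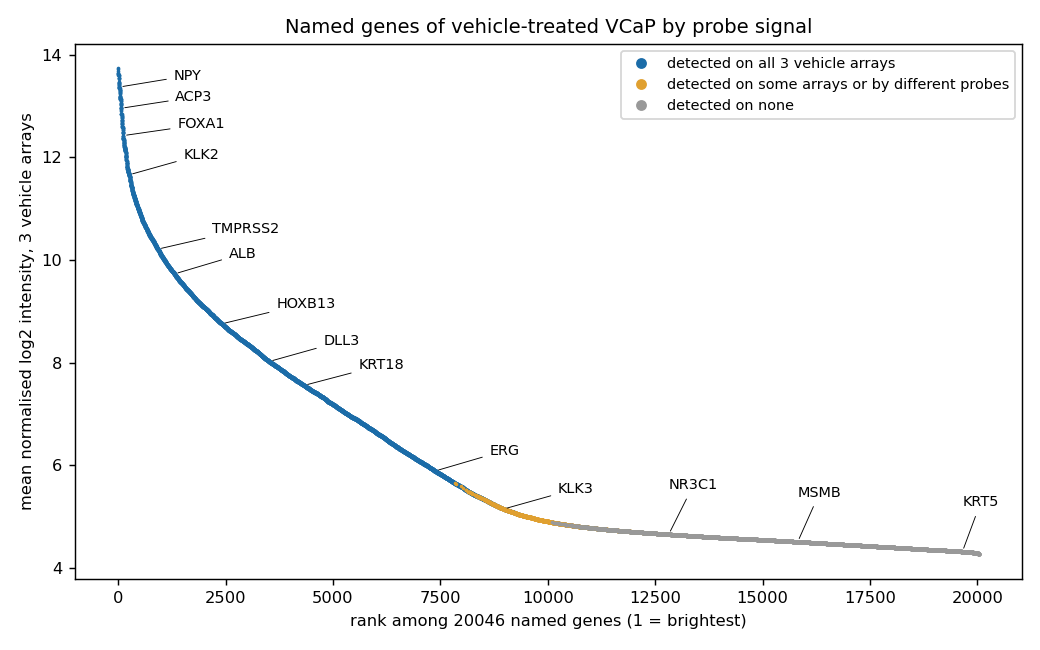
Mean normalised log2 intensity over the 3 vehicle arrays (vertical axis) against the rank of each of the 20046 named genes (horizontal axis), each point 1 gene coloured by its detection. ACP3, FOXA1 and KLK2 lie on the steep left end, KLK3 near the bend at 5.14, and KRT5 on the flat tail of undetected genes.

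Genes of luminal cells were largely detected in the vehicle profile. Of 18 luminal genes with a named probe, 15 (83.3%) were detected on all 3 arrays, against 44.2% of all named genes, and 13 were detected on all 12 arrays of the study. The median level of the list was 9.83, at a median percentile of 93.9. These 18 genes held 0.616% ± 0.018 of the summed signal.

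ACP3, prostatic acid phosphatase, gave 12.88, 13.11 and 12.89 on the 3 arrays. FOXA1, the pioneer factor that opens chromatin for nuclear receptors in luminal cells, gave 12.44, 12.41 and 12.42. KLK4 gave 11.83, 11.62 and 11.59, and the related protease gene KLK2 gave 11.57, 11.71 and 11.71. All 4 lay above the 98th percentile on average, at 99.6, 99.4, 98.8 and 98.7, with SDs of 0.13 or less.

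Further luminal genes were the metalloreductase STEAP2 at 11.08 ± 0.17, the transporter SLC45A3 (prostein) at 11.02 ± 0.09 and TMPRSS2, a membrane serine protease, at 10.21 ± 0.04. SPDEF, an ETS factor of secretory epithelia, had 10.12 ± 0.06, and FOLH1, which encodes prostate-specific membrane antigen, had 10.11 ± 0.25. The luminal keratins KRT8 and KRT18 had 9.56 ± 0.16 and 7.55 ± 0.32, and the cold-sensing channel TRPM8 had 9.56 ± 0.02. HOXB13, the homeobox gene of the prostate and hindgut, had 8.76 ± 0.06. These 9 genes were each detected on all 12 arrays.

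The secreted proteins of the seminal fluid were not uniformly seen. KLK3, which encodes prostate-specific antigen, gave 5.24, 4.97 and 5.23, with detection p-values of 0.0078, 0.0195 and 0.0208, and was detected on 6 of the other 9 arrays. TGM4, the prostate transglutaminase, had 5.38 ± 0.14 and was likewise detected on 6 of the other 9. KLK15 was detected on vehicle replicates 1 and 2 at 5.01 and 4.97 but not on replicate 3 at 4.62. MSMB, beta-microseminoprotein, at 4.50 ± 0.05 by its brightest of 3 probes, and AZGP1, a zinc-binding glycoprotein of secretory epithelium, at 4.46 ± 0.13, were detected on 0 of the 3 vehicle arrays. For KLK3 and AZGP1 the array has 1 named probe each, so no other probe checks their levels.

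**Figure D2:**
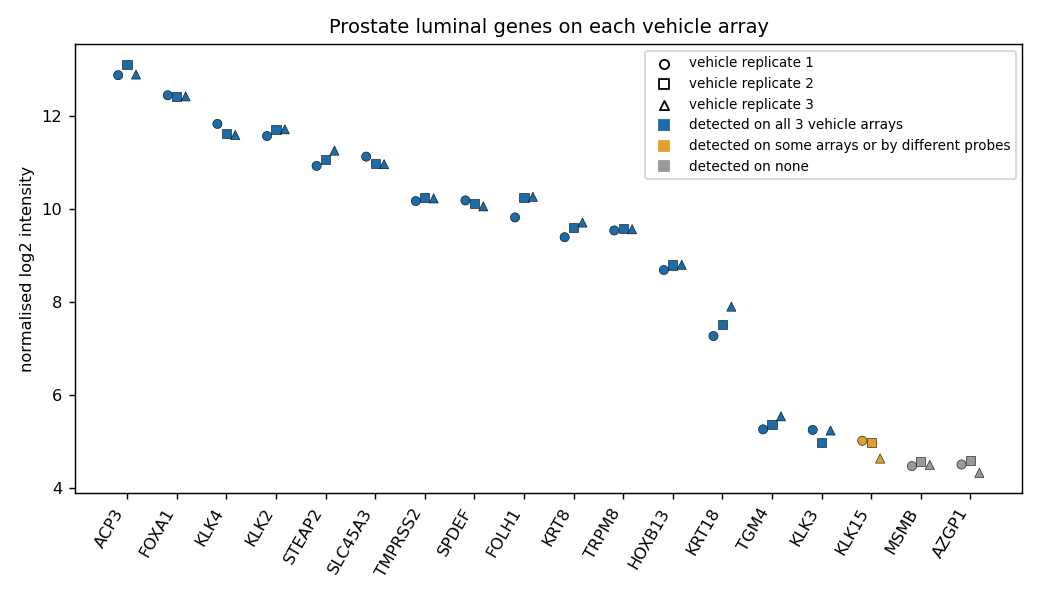
Normalised log2 intensity of the 18 luminal genes (horizontal axis, ordered by mean) on vehicle replicates 1, 2 and 3 (circles, squares, triangles), coloured by detection. From ACP3 to KRT18 all arrays lie above 7, while TGM4, KLK3, KLK15, MSMB and AZGP1 lie below 6.

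The 15 kallikrein genes form a cluster of secreted serine proteases on chromosome 19. Of these, 3 (20%) were detected on all 3 arrays, namely KLK4, KLK2 and KLK3, beside 44.2% of all named genes. KLK13, KLK12, KLK14 and KLK1 were among the 9 detected on none, at 4.37 to 4.53. KLK2 and KLK3 are close paralogs, and whether the probe of either binds the RNA of the other was not tested. The sequences before the start sites of both are shown because these neighbours gave such different probe signals, with a ribosomal protein gene and the undetected basal keratin gene KRT5 for contrast. Each run is the 250 bases before the transcription start in RefSeq GRCh38.p14, 5′ to 3′ on the gene's strand, with every CG dinucleotide in capitals.
RPS12, chr6:132814319-132814568, plus strand: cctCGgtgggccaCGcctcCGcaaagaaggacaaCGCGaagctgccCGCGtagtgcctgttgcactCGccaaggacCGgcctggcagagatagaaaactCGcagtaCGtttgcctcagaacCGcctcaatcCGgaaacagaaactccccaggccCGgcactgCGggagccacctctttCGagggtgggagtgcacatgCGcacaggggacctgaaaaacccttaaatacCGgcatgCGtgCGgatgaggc
KLK2, chr19:50873189-50873438, plus strand: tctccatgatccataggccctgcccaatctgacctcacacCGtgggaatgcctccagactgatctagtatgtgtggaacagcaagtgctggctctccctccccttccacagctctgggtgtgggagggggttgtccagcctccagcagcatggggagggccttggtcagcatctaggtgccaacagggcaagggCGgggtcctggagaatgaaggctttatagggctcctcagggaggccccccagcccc
KLK3, chr19:50854665-50854914, plus strand: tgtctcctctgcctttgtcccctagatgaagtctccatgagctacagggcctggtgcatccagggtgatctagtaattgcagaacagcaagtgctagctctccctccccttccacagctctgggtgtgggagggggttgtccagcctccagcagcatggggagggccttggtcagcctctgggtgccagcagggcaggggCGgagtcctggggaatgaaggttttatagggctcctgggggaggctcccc
KRT5, chr12:52520395-52520644, minus strand: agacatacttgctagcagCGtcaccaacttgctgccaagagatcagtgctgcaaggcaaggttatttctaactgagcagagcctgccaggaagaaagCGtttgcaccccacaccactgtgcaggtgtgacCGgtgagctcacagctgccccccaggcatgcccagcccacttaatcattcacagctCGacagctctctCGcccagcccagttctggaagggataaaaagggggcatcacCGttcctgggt

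The KLK2 and KLK3 runs were identical at 205 of 259 aligned positions (79.2%). Both hold the letters TATAAA on the opposite strand, with the first base 34 bases before the start in KLK2 and 28 in KLK3. They hold 2 and 1 CG dinucleotides, against 20 in RPS12 and 6 in KRT5. The letters TATAAA occur on either strand in 9.63% of all 15843 coding promoter windows of the table, a window being 300 bases of which 50 follow the start.

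Genes recurrently altered or raised in prostate cancer were mostly detected. Of 19 with a named probe, 16 (84.2%) were detected on all 3 vehicle arrays, beside 44.2% of all named genes, and the median level was 8.40. SPOP, a ubiquitin ligase adaptor often mutated in prostate cancer, gave 10.52, 10.51 and 10.44. MYC gave 10.56, 10.36 and 10.42, the homeobox gene HOXC6 had 9.97 ± 0.09 and the secreted protein gene CRISP3 had 9.43 ± 0.11. Levels of the others ran from AURKA, a mitotic kinase, at 9.41 ± 0.06 to CDKN2A, an inhibitor of cyclin-dependent kinases, at 5.06 ± 0.11. AMACR, the racemase used as a histological marker of prostate carcinoma, had 8.40 ± 0.11. PCA3, a non-coding RNA marker measured in urine, the telomerase gene TERT and the coactivator NCOA2 were detected on 0 of the 3 arrays.

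Of 27 ETS transcription factors, 13 (48.1%) were detected on all 3 arrays, near the 44.2% of all named genes. SPDEF came first, followed by ELF1 at 8.74 ± 0.11, ETS1 at 8.52 ± 0.01 and ELK1 at 8.24 ± 0.13. ERG, the fusion partner of TMPRSS2 in this line, had 5.90, 5.71 and 6.04 by its brightest probe, at the 63.2 percentile, and was detected on all 12 arrays by it. Its second probe, at 4.76, was detected on 1 vehicle array and its dimmest, at 4.45, on none. Whether those probes lie in the part of ERG that the fusion keeps was not tested. ETV1, which is fused in other prostate cancers, had 4.25, 4.31 and 4.31 and was detected on 0 arrays, as were ETV4 and ETV5, and FLI1 was detected on 1.

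Of 6 steroid receptor genes listed, 5 were analysed, and 1 of these was detected on all 3 arrays. The androgen receptor gene, the other one, is not analysed here. The mineralocorticoid receptor NR3C2 gave 5.74, 5.85 and 5.92 and was detected on all 12 arrays. The glucocorticoid receptor NR3C1, measured by 3 probes, had 4.54, 4.58 and 4.83 by the brightest, and none of its probes was detected on any of the 12 arrays. The progesterone receptor PGR at 4.37 ± 0.07 and the estrogen receptors ESR1 at 4.52 ± 0.11 and ESR2 at 4.70 ± 0.30 were also detected on 0 of the 3 vehicle arrays. Of 34 other nuclear receptors, 11 (32.4%) were detected on all 3 arrays, beside 44.2% of all named genes, led by NR2F6 at 9.79 ± 0.07, RXRB at 9.61 ± 0.07, RXRA at 9.11 ± 0.04 and ESRRA at 8.21 ± 0.12. RXRA and RXRB encode shared partners of many nuclear receptors. The retinoid receptor genes RARB, RXRG and RARG and the orphan receptor ESRRB were among the 16 detected on none.

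Among 18 genes of androgen synthesis and inactivation, 4 (22.2%) were detected on all 3 arrays, beside 44.2% of all named genes, and 12 on none. HSD17B4, a peroxisomal enzyme, had 10.45 ± 0.06, and AKR1C3, which reduces androstenedione to testosterone, had 9.92 ± 0.09. HSD17B6 had 6.73 ± 0.08, and UGT2B17, which glucuronidates androgens, had 6.10 ± 0.15. The early steps of steroid synthesis were not seen, with STAR, which carries cholesterol into mitochondria, CYP11A1, CYP17A1 and HSD3B1 detected on 0 arrays at 4.31, 4.80, 4.30 and 4.46. AKR1C3 and UGT2B17 have near-identical relatives, and cross-binding of their probes was not tested.

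Epithelial adhesion genes were largely detected and mesenchymal genes largely not. Of 16 adhesion and epithelial splicing genes, 11 (68.8%) were detected on all 3 arrays, beside 1 of 12 (8.33%) mesenchymal genes. The share of all named genes was 44.2%. The adhesion molecule EPCAM gave 11.41, 11.75 and 11.67, and E-cadherin, CDH1, gave 10.06, 10.04 and 10.02. OVOL2, a repressor of mesenchymal genes, had 9.17 ± 0.11, and the tight junction scaffold TJP1 had 8.90 ± 0.18. CLDN4, OVOL1, OCLN and ESRP2 were detected on 0 vehicle arrays, although CLDN4 was detected on 8 of the other 9. The intermediate filament gene VIM, at 6.69, 6.62 and 6.09, was the mesenchymal member detected, while N-cadherin CDH2, FN1, ZEB1 and CDH11 were detected on none.

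Of 49 keratins, 5 (10.2%) were detected on all 3 arrays, beside 44.2% of all named genes, the simple-epithelium keratins KRT8, KRT18 and KRT19 with KRT10 and KRT80, and 43 on none. KRT10 had 8.80 ± 0.20, KRT19 had 8.58 ± 0.13 and KRT80 had 6.35 ± 0.07. Of 23 claudins, which seal tight junctions, 7 (30.4%) were detected, a share below that of all named genes, led by CLDN12 at 9.24 ± 0.08, CLDN3 at 8.87 ± 0.13, CLDN8 at 8.73 ± 0.10 and CLDN7 at 8.07 ± 0.03. Of 29 HOX genes, which set position along the body axis, 4 (13.8%) were detected, namely HOXC6, HOXB13, HOXC4 at 7.02 ± 0.13 and HOXC13 at 5.80 ± 0.09. HOXB6, HOXB4, HOXB1 and HOXB2 were among the 21 detected on none.

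Of 15 genes for cell-surface proteins used as drug targets, 9 (60%) were detected on all 3 arrays, beside 44.2% of all named genes, including EPCAM, STEAP2, STEAP1 at 10.94 ± 0.14 and FOLH1. The immune checkpoint gene CD276 had 9.18 ± 0.13, and the receptor kinase gene ERBB2 had 7.60 ± 0.17. CEACAM5, MSLN, MUC1 and NECTIN4 were detected on 0 of the 3 arrays.

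Of 14 basal genes listed, 9 had a named probe, and the other 5 are not analysed here. Of these 9, 1 (11.1%), the integrin ITGA6 at 5.73 ± 0.16, was detected on all 3 arrays, beside 44.2% of all named genes. KRT5 gave 4.36, 4.29 and 4.30 and KRT14 gave 4.50, 4.44 and 4.49, and both were detected on 0 of the 12 arrays. The integrin ITGB4 and laminin LAMB3 were likewise detected on 0 vehicle arrays. Summed linear signal over the 9 genes lay between 89.3 and 115 on the vehicle arrays, beside 28984 to 30467 over the 18 luminal genes, sums that differ in their number of genes. Of 9 genes of the club and hillock cells that line the urethral end of the ducts, MMP7 alone was detected on all 3, at 5.71 ± 0.30, and SCGB1A1, SCGB3A1, KRT4 and KRT13 were detected on none.

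Neuroendocrine genes were mixed, with 7 of 14 (50%) detected on all 3 arrays, near the 44.2% of all named genes, and 6 on none. DLL3, a Notch ligand of neuroendocrine tumours, gave 8.01, 8.04 and 8.01, and INSM1, a neuroendocrine transcription factor, gave 7.0, 6.80 and 6.66. The granule proteins CHGA at 5.74 ± 0.18 and SCG3 at 5.65 ± 0.26 were detected nearer to the threshold, as were CHGB at 5.40 ± 0.11, SCG2 at 5.40 ± 0.15 and ENO2 at 5.43 ± 0.18. The synaptic vesicle protein SYP, the adhesion molecule NCAM1, FOXA2 and the splicing factor SRRM4 were each detected on 0 of the 12 arrays. At a detection p under 0.01 the 7 became 4.

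**Figure D3:**
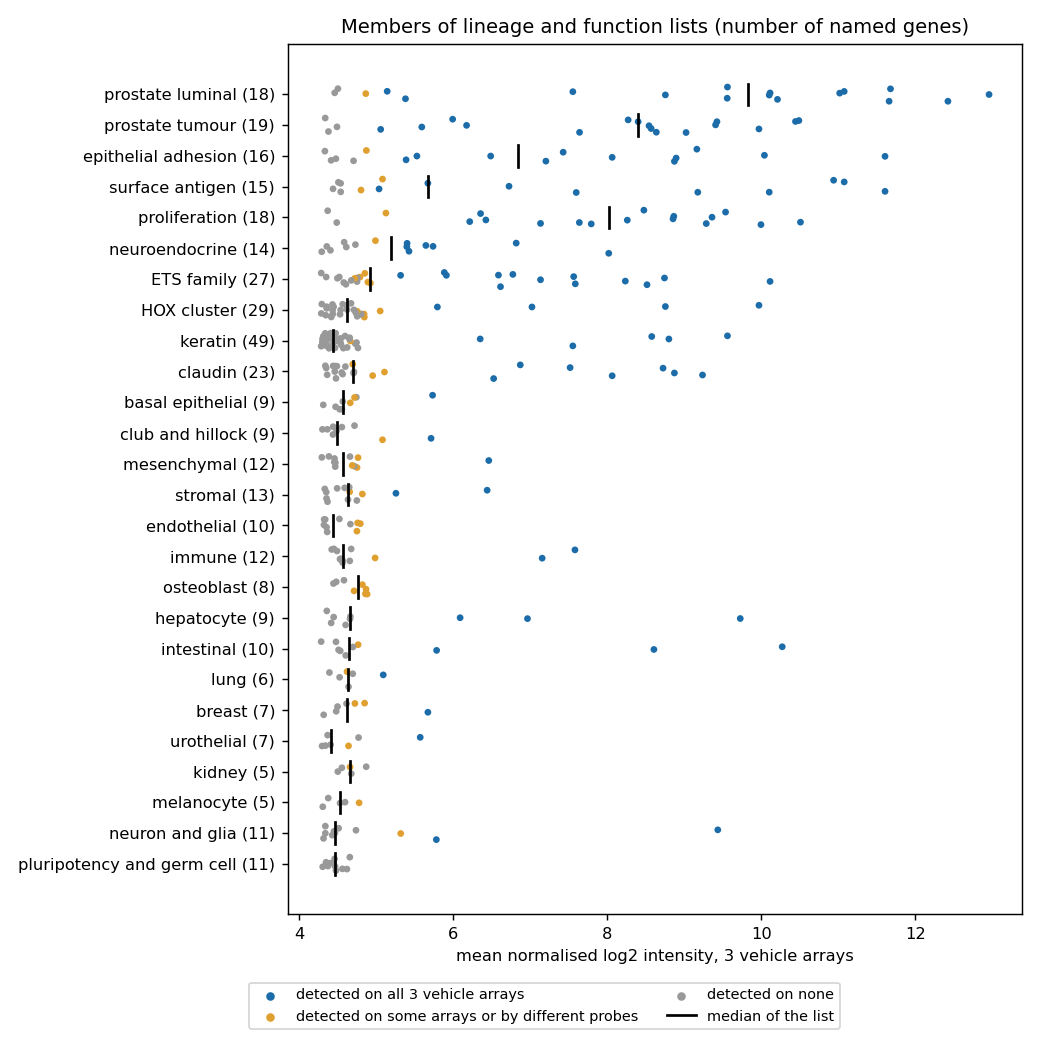
Mean normalised log2 intensity over the 3 vehicle arrays (horizontal axis) of each named member of 26 gene lists (vertical axis, with the number of genes), coloured by detection, with a black bar at the median. Luminal, tumour, adhesion and proliferation lists have their medians above 6, and basal, stromal, endothelial and pluripotency lists have theirs below 5.

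Most listed markers of other tissues were not detected on all 3 arrays. The detected share was 33.3% of the hepatocyte and 30% of the intestinal genes, beside 44.2% of all named genes. Of 9 hepatocyte genes, 3 were detected on all 3 arrays, albumin ALB at 9.74, 9.72 and 9.73, the fetal serum protein gene AFP at 6.97 ± 0.18 and transthyretin TTR at 6.09 ± 0.08, all 3 on all 12 arrays. APOA1, SERPINA1, APOA2 and APOB were detected on 0 of the 3 vehicle arrays, although SERPINA1 was detected on 3 of the other 9. Of 10 intestinal genes, 3 were detected, the secreted lectin gene REG4 at 10.10, 10.34 and 10.38, the trefoil peptide gene TFF3 at 8.61 ± 0.14 and the homeobox gene CDX2 at 5.79 ± 0.08. MUC2, CDX1, LGALS4 and VIL1, other defining intestinal genes, were detected on 0 vehicle arrays.

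Among 11 neuron and glia genes MBP, at 9.44 ± 0.07, and MAP2, at 5.78 ± 0.06, were detected, and SYT1, GRIA2, SNAP25 and RBFOX3 were not. Of 12 immune genes, CD68 at 7.58 ± 0.12 and CD14 at 7.16 ± 0.12 were detected on all 12 arrays. The pan-leukocyte gene PTPRC, the T-cell genes CD3D and CD3E and the B-cell gene CD79A were detected on 0 of the 3 vehicle arrays. Of 13 stromal genes, ACTA2 at 6.44 ± 0.16 and LUM at 5.26 ± 0.23 were detected, while DCN, PDGFRA, COL1A2 and PDGFRB were not. None of 10 endothelial, 8 osteoblast, 5 kidney and 5 melanocyte genes was detected on all 3 arrays, although 5 of the 8 osteoblast genes were detected on some, and 2 of them on both remaining arrays without vehicle replicate 3. SP7, which specifies osteoblasts, DMP1 and PHEX were detected on none, as were TEK, TIE1, CDH5 and KDR of endothelium, AQP2, PAX2, PAX8 and SLC22A6 of kidney and PMEL, MLANA, SOX10 and TYR of melanocytes.

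Lung, breast and urothelial lists each had 1 detected member, the surfactant protein SFTPD at 5.09 ± 0.15, MUCL1 at 5.67 ± 0.08 and the nuclear receptor PPARG at 5.57 ± 0.15. At a detection p under 0.01, SFTPD with a highest p of 0.0494 and PPARG with 0.0104 were lost, as were LUM of the stromal list, OR9A4 of the olfactory receptors and KRTAP10-11 of the keratin-associated proteins. Surfactant genes SFTPB and SFTPC and the lung and thyroid factor NKX2-1 were detected on none, as were the mammary genes SCGB2A2, PIP and CSN2 and the uroplakins UPK1A, UPK2, UPK3A and UPK3B. All 11 pluripotency and germ cell genes, POU5F1, NANOG, LIN28A and LIN28B among them, were detected on 0 vehicle arrays.

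**Figure D4:**
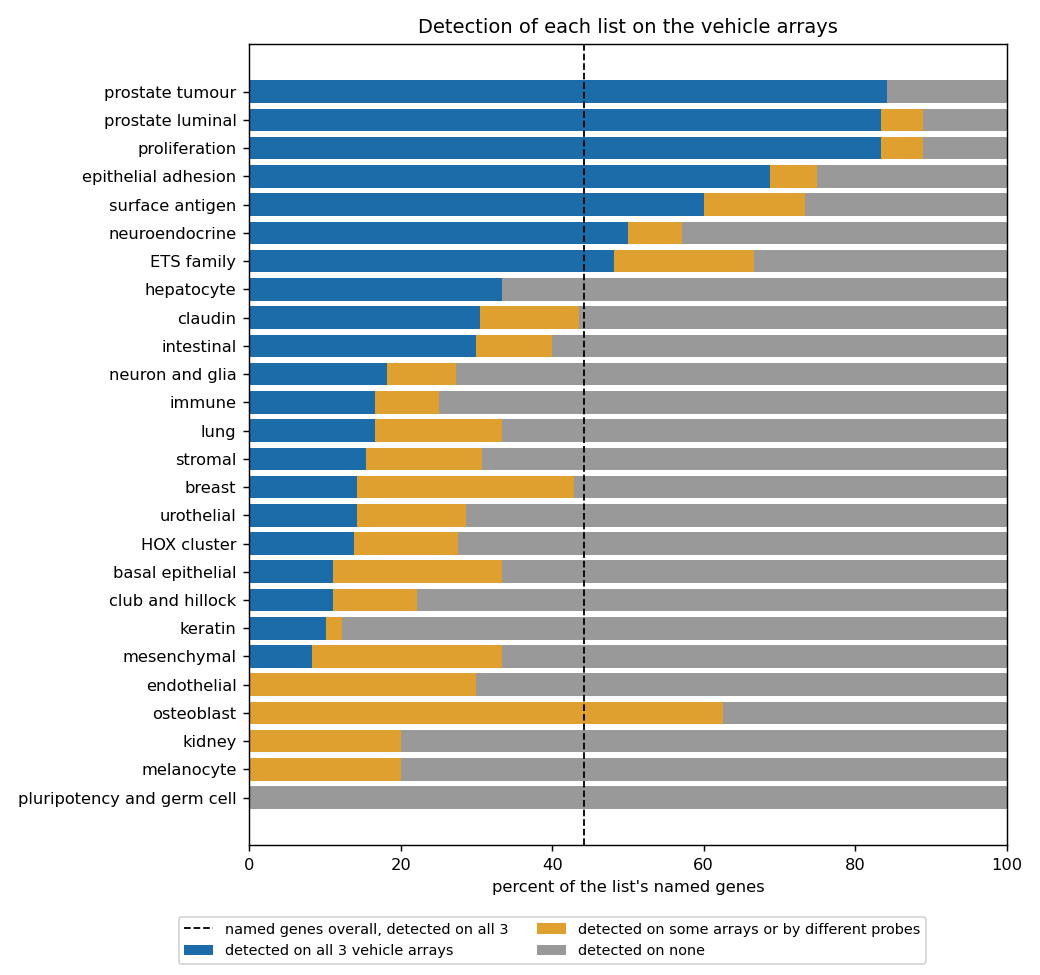
Percent of each list's named genes (horizontal axis) detected on all 3 vehicle arrays, on some or by different probes, or on none, for 26 lists (vertical axis). The dashed line marks 44.2%, the share of all named genes detected on all 3, which 7 lists exceed.

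Most cell-cycle genes were detected. Of 18 proliferation genes, 15 (83.3%) were detected on all 3 arrays, beside 44.2% of all named genes. The list median was 8.03. The replication helicase subunit MCM7 gave 10.61, 10.43 and 10.49, the clamp PCNA had 10.00 ± 0.09, topoisomerase TOP2A had 9.54 ± 0.08 and MCM3 had 9.36 ± 0.07. These levels are of the brightest probes. By the mean over all probes of a gene, the percentiles were 76.2 for MCM7, 76.1 for PCNA, 94.9 for TOP2A and 87.5 for MCM3. MKI67, which encodes the Ki-67 antigen, gave 4.49, 4.54 and 4.44 by its single named probe and was detected on 0 of the 12 arrays, and the cyclin CCNE2 was likewise detected on none.

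Among 72 cytosolic ribosomal protein genes 68 (94.4%) and among 70 oxidative phosphorylation subunits 68 (97.1%) were detected on all 3 arrays. The share of all named genes was 44.2%, and the list medians were 12.74 and 10.70. All 12 housekeeping genes were detected, GAPDH at 12.70 ± 0.08, ACTB at 11.71 ± 0.05 and YWHAZ at 11.47 ± 0.20 after EEF1A1. Of 9 long non-coding RNAs, SNHG1 at 8.40 ± 0.11 was detected on all 3 arrays. MALAT1, an abundant nuclear RNA in most cells, gave 4.33, 4.27 and 4.46 by its single named probe and was detected on 0 of the 12 arrays, and PCGEM1 and H19 were also undetected.

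Few members of large tissue-restricted families were detected. Of 371 olfactory receptor genes, 2 (0.539%) were detected on all 3 arrays, beside 44.2% of all named genes, and 322 on none. OR51E2, a receptor also known from the prostate as PSGR, gave 5.95, 6.07 and 6.18 and was detected on all 12 arrays. OR9A4 had 5.33 ± 0.09 and was detected on 7 of the other 9. Without vehicle replicate 1, 2 or 3, the olfactory receptors detected on both remaining arrays numbered 6, 5 and 5. Among 80 keratin-associated protein genes 1, KRTAP10-11 at 5.14 ± 0.27, was detected on all 3 arrays, and 0 of 25 bitter taste receptors and 0 of 18 MAGE-A and MAGE-B genes were. TAS2R14, TAS2R13, MAGEA3 and MAGEA4 were among those detected on none.

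By annotated gene type, 8547 of 17775 protein-coding genes (48.1%), 122 of 542 pseudogenes (22.5%) and 88 of 798 long non-coding RNA genes (11.03%) were detected on all 3 arrays. By chromosome, the share of protein-coding genes was lowest on X, with 272 of 741 (36.7%), then on 11, with 510 of 1200 (42.5%), and highest on 15, with 281 of 517 (54.4%). These shares are descriptions, and the families that each chromosome holds were not taken out of them.

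Promoters of detected genes were rich in CG dinucleotides, the sites of DNA methylation that cluster at housekeeping promoters. Of 8547 detected protein-coding genes, 7229 (84.6%) had a RefSeq window, and the median ratio of observed to expected CG was 0.857, beside 0.763 over all 15843 coding windows. The letters TATAAA were in 5.15% of them, beside 9.63% of all windows. With the detected genes split into 5 equal groups by level, the median ratio was 0.829 in the lowest, then 0.857, 0.852, 0.875 and 0.867 in the highest. For genes detected on none, 77.5% had a window, under the 80% needed, so the check over that class was void, as it was for the luminal list at 73.3%.

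Cytosolic ribosomal protein genes, of which 83.3% had a window, had a median ratio of 0.911. A run of at least 8 pyrimidines (C or T) on the gene's strand within 20 bases of the start, the kind of start known for ribosomal protein genes, was in 81.7% of them, beside 16.6% of all windows. Single detected luminal genes spread widely in the CG ratio, and the check over their list was void. Ratios were 0.966 in FOXA1, 0.794 in STEAP2 and 0.747 in SLC45A3, then 0.397 in SPDEF, 0.267 in TGM4 and 0.238 in TRPM8. The lowest were 0.152 in ACP3, 0.144 in KLK4, 0.111 in KRT8, 0.109 in KLK2 and 0.072 in KLK3. ACP3 and KLK2, both above the 98th percentile of level, thus had windows poor in CG.

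The detected genes with the largest SD over the vehicle arrays were mostly dim. EML2, which encodes a microtubule-associated protein, gave 5.02, 5.11 and 6.40, CCDC120 gave 5.43, 5.62 and 6.77, and UTRN, the dystrophin-related gene utrophin, gave 5.39, 5.41 and 6.59. Replicate 3 was the high array in these 3 genes. TAF6, a subunit of the basal transcription factor TFIID, gave 6.04, 6.12 and 4.78, with replicate 3 low, and JHY gave 5.75, 6.54 and 5.21. This TAF6 probe was not detected on replicate 3, at a detection p of 0.134, and TAF6 counts as detected by its other probe. E2F1, a transcription factor of S phase entry, gave 6.65, 5.55 and 5.46, with replicate 1 high. The SD of these 6 genes ran from 0.66 to 0.77, beside the median of 0.12.

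To see where the vehicle profile stood apart from the rest of the series, each gene's vehicle mean was set against the mean of the other 3 group means in a limma model of all 12 arrays normalised together. Of 11414 genes tested, 280 (2.45%) passed at an adjusted p under 0.05, 147 (1.29%) higher and 133 (1.17%) lower in vehicle. Differences are log2 ± SE, and levels in this comparison come from the joint normalisation. None of the 10 basal, stromal, endothelial and osteoblast genes that could be tested passed in either direction. At the 2.45% of all genes, so few genes would seldom hold a passing one. The F test among the 4 groups, described below, was passed by 27.9% of all genes. It was passed by both stromal genes and 1 endothelial gene, and by 0 basal and 0 osteoblast genes. The vehicle arrays lay all above or all below the other 9 for 179 genes (1.57%).

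MCM4, a subunit of the replication helicase, was at 8.78, 8.65 and 8.61 on the vehicle arrays, against a lowest of 7.26, a median of 8.02 and a highest of 8.48 on the other 9. The groups did not overlap, and the difference was 0.74 ± 0.07 (limma adjusted p = 0.000415). MCM2 was 0.78 ± 0.07 higher, CDCA7, a MYC target, was 0.71 ± 0.07 higher and CDC45, a helicase cofactor, was 0.50 ± 0.06 higher in vehicle, also without overlap. REG4 was 0.89 ± 0.08 higher than the mean of the others, but the arrays overlapped. Its vehicle mean of 10.47 stood above the DHT mean of 7.16, below the enzalutamide mean of 11.04 and beside the 10.54 of enzalutamide plus dexamethasone.

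Of 16 proliferation genes tested, 7 were higher in vehicle at the threshold and 0 were lower, beside 1.29% and 1.17% of all genes. They were MCM2, MCM3, MCM4, MCM5, MCM6, MCM7 and PCNA, genes of DNA replication. For all 7 the vehicle mean was the highest and the DHT mean the lowest of the 4 groups. The vehicle arrays of MCM3, MCM6, MCM7 and PCNA overlapped with other arrays. PCNA, for example, averaged 10.19 in vehicle, against 9.56 with DHT, 9.82 with enzalutamide and 10.15 with enzalutamide plus dexamethasone. The other 9 did not pass, and 7 of these had differences below 0, among them the mitotic genes CCNA2 at -0.27 ± 0.09, CCNB1 at -0.23 ± 0.08 and BUB1 at -0.20 ± 0.08. The list median was 0.26, beside -0.01 over all genes tested. MCM5 was at 7.10, 7.34 and 7.54 in vehicle, against 6.18 to 7.01 on the other 9. When arrays were scaled to equal medians instead of equal quantiles, none of these 7 genes passed, and that scaling moved the median of all genes to -0.17.

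ERRFI1, a feedback inhibitor of EGFR family receptors, was lower in vehicle by the mean of the others, at -0.80 ± 0.07, with a vehicle mean of 8.53 against 10.30 with DHT, 8.60 with enzalutamide and 9.07 with enzalutamide plus dexamethasone. NUCB2, a calcium-binding protein gene, was at 8.70, 8.95 and 8.93 in vehicle, below all other arrays at 9.27 to 9.88, a difference of -0.73 ± 0.07. RDH10, a retinol dehydrogenase, NBL1, an antagonist of BMP ligands, and FKBP5, a chaperone induced by steroid receptors, were also lower by the mean of the others. Their differences were -0.72 ± 0.09, -0.69 ± 0.07 and -0.61 ± 0.07. Their vehicle arrays overlapped with other arrays, and for all 3 the DHT mean was the highest of the 4 groups. FKBP5, for example, averaged 9.32 in vehicle, against 11.70 with DHT, 8.36 with enzalutamide and 9.72 with enzalutamide plus dexamethasone. RDH10 averaged 7.95 in vehicle, against 9.94, 8.15 and 7.94 in the same order, and NBL1 8.52 against 10.49, 8.62 and 8.53. For RDH10 and NBL1 the vehicle mean was thus beside that of enzalutamide plus dexamethasone.

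**Figure D5:**
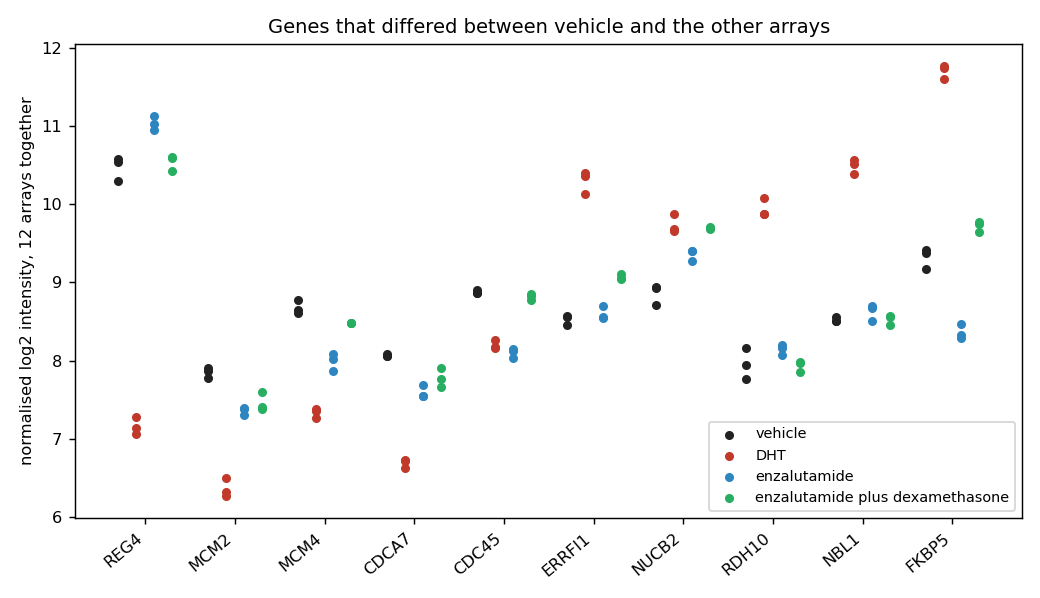
Normalised log2 intensity (vertical axis) of the 5 genes higher and the 5 genes lower in vehicle with the smallest adjusted p (horizontal axis), each point 1 array, with vehicle at the left of each cluster. MCM4, MCM2, CDCA7 and CDC45 have vehicle points above all others and NUCB2 below all others, and the DHT mean is the farthest from vehicle for 9 of the 10 genes.

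Members of other lists that passed were few. TRPM8 was 0.52 ± 0.07 higher in vehicle, the only one of 16 tested luminal genes to pass, with a vehicle mean of 9.76 between 10.48 with DHT and 8.73 and 8.52 in both enzalutamide groups. ALB, CD14, MMP7, MYC, HSD17B6, ETS2, TUBB and NDUFA7 exceeded the mean of the other 3 group means by 0.31 to 0.66, of which CD14, TUBB and NDUFA7 lay above all other arrays. The 0.66 was that of MMP7, which averaged 5.87 in vehicle and 4.89 with DHT. MMP7 was not detected on all of the other 9 arrays, so its size is uncertain. MYC averaged 10.65 in vehicle, against 9.19 with DHT, 11.01 with enzalutamide and 10.81 with enzalutamide plus dexamethasone, so its vehicle mean lay below both enzalutamide groups. ALB averaged 9.93 in vehicle, below its enzalutamide mean of 10.45, and HSD17B6 6.92, below its enzalutamide plus dexamethasone mean of 7.32. ENO2 also passed, but it was not above background on any DHT array, so no size is given. ELF1 and CLDN8 were lower in vehicle than the mean of the other 3 group means, at -0.34 ± 0.08 and -0.40 ± 0.09. CLDN8 averaged 8.92 in vehicle, against 10.14 with DHT, 9.01 with enzalutamide and 8.82 with enzalutamide plus dexamethasone. Its vehicle mean thus lay above the last of these. ETV2 passed as well, with 0 vehicle arrays and 8 of the other 9 above background, and no size is given for it.

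A moderated F test for any difference among the 4 groups was passed by 3190 genes (27.9%), and by 13 of the 16 tested luminal genes. KLK2 averaged 11.85 in vehicle, against 12.43 with DHT, 11.26 with enzalutamide and 12.13 with enzalutamide plus dexamethasone (limma F, adjusted p = 1.93e-06). TMPRSS2 averaged 10.41 in vehicle, against 11.90, 9.91 and 10.15 in the same order, and ERG 6.05 against 6.92, 5.30 and 5.76. For all 3 the vehicle mean lay between those of DHT and enzalutamide, so vehicle minus the mean of the others was small, at -0.09 ± 0.06, -0.24 ± 0.06 and 0.05 ± 0.08. FOXA1 and HOXB13 did not pass the F test, at adjusted p of 0.070 and 0.080. Their 4 group means spanned 12.58 to 12.85 and 8.75 to 8.99.

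The count of 280 genes depended on single arrays. It was 83, 164 and 124 without vehicle replicate 1, 2 or 3, 184 and 186 without DHT replicate 1 or 3, and 182 without either replicate 2 or replicate 3 of enzalutamide plus dexamethasone. With scaling to a common median it was 55, of which 1 was higher and 54 lower in vehicle. MCM4, MCM2, CDCA7, CDC45, MCM5, MCM6, CD14 and TRPM8 missed the threshold in that scaling alone among the alternatives tried. Of the 28 genes named as passing in this comparison, 14, 12 and 11 missed it without vehicle replicate 1, 2 or 3. With vehicle replicate 3 as a block of its own, 11 missed it: MCM7, PCNA, MMP7, TUBB, ALB, ETV2, HSD17B6, MYC, CLDN8, ELF1 and NDUFA7. ELF1 and NDUFA7 also missed it with the replicate number as a block.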

How the data were processed

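Per the labels, total RNA of VCaP cultures was labelled as biotinylated cRNA and hybridised to Illumina arrays read with GenomeStudio (version not given in the sources used here). The deposited intensities are means over the beads of a probe (median 21 to 22 beads, from the deposited bead counts) and were not normalised between arrays. The deposited detection p-values step by 1 in 770 negative controls. A table of intensities processed by the authors served as an alternative.

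Normexp background correction from the detection p-values (offset 16), quantile normalisation and log2 followed neqc of limma 3.58.1 in R 4.3.3, on the 3 vehicle arrays for levels and on all 12 for comparisons. Genes were named from the platform annotation, which gave 1 symbol to 30112 of 47322 probes, several to 8 and none listed for 17202. A gene was detected by any of its probes, and its level was that of its brightest. Probes of 1599 genes disagreed, with a probe detected on all 3 vehicle arrays and another on none.

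Vehicle minus the mean of the other 3 groups, and an F test, used limma's linear model with empirical Bayes moderation (8 degrees of freedom from the residuals, 3.77 from the prior) on genes with a probe detected on at least 3 of 12 arrays, two-sided, with Benjamini-Hochberg adjustment. On simulated data of 11414 genes with 200 changed in vehicle, this fit was checked for recovery of known changes. The vehicle comparison called 96% of changes of 1 log2 unit but only 58% to 62% of changes of 0.5, with 10 false calls. The number of arrays limits the precision. Named genes were the 25 brightest, up to 4 detected and 4 undetected members of each of 38 lists, all steroid receptors, ERG, ETV1 and FLI1, the 6 most variable, 3 on each side of the threshold, the 5 smallest adjusted p each way and list members passing; others were used as further examples. Members, lists and rule were chosen with earlier results of these data known. Promoter windows came from RefSeq GRCh38.p14, the first listed start of a gene, and KLK2 and KLK3 were aligned with Biopython 1.88. Alternatives tried were a detection p under 0.01, the brightest probe alone, probes in place of genes, other background corrections and scalings, other filters, a replicate block, the authors' table and leaving out each array.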

Additional observations from a re-analysis of the deposited data

Results flagged for a closer look

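Among the 17202 probes that the annotation does not list, 2437 (14.2%) were detected on all 3 vehicle arrays, beside 37.2% of the listed probes. They stood out as signal in probes that no result above uses, since they carry no gene name here. They were not analysed further.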

How the results depend on the processing

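Genes detected on all 3 vehicle arrays numbered 8003 to 9577 and genes detected on none 8263 to 10427 under a p under 0.01, the brightest probe alone and without each vehicle replicate (8967 to 9577 and 8640 to 9161 without a replicate). Counted as probes, they were 13647 and 26002. Of the first 100 genes, 100 stayed under each other normalisation, 98 to 99 without a replicate and 58 with the mean over all probes of a gene, where HOXC6 moved to the 67.5 percentile and MBP to 75.7. The count for vehicle minus the other 3 groups was 303 with a replicate block, 123 with vehicle replicate 3 as a block of its own, 55 with a common median, 543 without background correction and 83 to 217 without an array. The F test gave 3389 with the replicate block, 1472 with a common median and 2467 to 3247 without an array. Deviations from the group means correlated at -0.08 to 0.22 between arrays with the same replicate number. Between arrays with different numbers the range was lower, at -0.21 to 0.12. The sources state no pairing, so the main fit held no replicate block. What the shared numbers stand for was not tested. The replicate block lost the calls of ELF1 and NDUFA7 among named genes. At a detection p under 0.01 the median promoter ratio was 0.860.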

Other observations

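The brightest probes of CDV3 and FGF13, names on different chromosomes, gave nearly the same values on each vehicle array. They were 7.93, 9.0 and 9.07 for CDV3 and 7.95, 9.02 and 9.08 for FGF13. A second CDV3 probe gave 8.27, 8.73 and 8.65, also lowest on replicate 1, and both other FGF13 probes were detected on 0 of the 3 arrays. The SDs of 0.64 and 0.63 were among the largest of the detected genes.

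SNORA8, a small nucleolar RNA, and the mRNA cap methyltransferase gene CMTR2 were also highest on vehicle replicate 3, at 5.94, 5.51 and 6.76 for SNORA8 and 5.53, 5.99 and 6.73 for CMTR2. CLUAP1, a gene of primary cilia, stood at 13.30 by its brightest of 5 probes, and its other 4 probes had 5.01 to 5.80.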
